A study of Triticum aestivum with 4 samples.

Results

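The genes described here are 3 translation initiation factors and 2 ribosomal proteins of wheat, followed in the flag leaf, which sits directly below the ear. A gene was taken when its annotated symbol or a RefSeq synonym read eIF-4E-1, Eif4B, eIF-2-beta, CL9 (also RPL9) or RPS29. These 5 genes, of 771 in the array annotation, were represented by 6 probe sets, and 5 of the 6 were bright enough to test. Transcripts were measured on 4 Affymetrix wheat arrays with 1 colour each. There were 2 heat arrays, from plants held for 1 h at 40 °C, and 2 control arrays, from plants kept under normal growth. Plants of both groups were of the cultivar TAM107, were moved from the field into pots before flowering and were sampled at about 10 days after pollination. Heat was given in a growth chamber. Whether control plants also went into one is not stated, so the chamber and its temperature cannot be told apart. Nor is it stated that replicate arrays held RNA of different plants, and the p-values below therefore measure only array-to-array spread, possibly technical.

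Protein synthesis in plants begins when the cap-binding factor eIF4E, in a complex with a scaffold protein and an RNA helicase, engages the capped end of an mRNA. eIF4B stimulates that helicase, and eIF2, of which eIF-2-beta is a subunit, brings the initiator methionine tRNA to the small ribosomal subunit. RPL9 is a protein of the large ribosomal subunit and RPS29 of the small one. In heat-shocked plants translation of most mRNAs is known to slow while heat shock mRNAs are translated. The arrays report transcript signals and not translation.

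The arrays had median signals of 76.9 and 71.9 in heat and 82.5 and 78.9 in control. Of the leaf markers, 4 genes had a name on the array (OEE1, OEE2, PRK and rbcL), and their mean signals were 37500 to 49510. In limma 3 of these 4 were called higher in heat and 0 lower (over all tested probe sets, 14.2% higher and 22.9% lower). Counts under other scalings or at like brightness are not given for these leaf markers. Their summed signal was 209613 and 203672 on the heat arrays, against 149575 and 166004 on the control arrays. Of 10 named grain protein genes, 4 exceeded the brightness filter and 0 of them were called in limma (0 also at an unadjusted p below 0.05). The summed signal of the 10 was 8599 and 8515 on the heat arrays, against 8503 and 8636 on the control arrays. Their mean signals were 5.12 to 7868, so the brightest made up most of this sum. The part of these markers in the results below was not tested. In whole leaf tissue, a change in the make-up of the cells and a change in RNA per cell cannot be told apart.

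The cap-binding factor eIF-4E-1 (gene LOC543485) was higher in heated leaves. Its probe set gave signals of 3871 and 4246 on the heat arrays, against 3258 and 3566 on the control arrays. Both heat arrays lay above both control arrays, although the lower heat array and the higher control array were only 0.12 apart on the log2 scale. The means were 4059 ± 265 in heat and 3412 ± 218 in control (SD, n = 2 each). This was a 1.19-fold rise, with a log2 difference of 0.25 ± 0.08 SE (95% interval 0.07 to 0.43, adjusted p = 0.0346 in limma). The call was lost without control replicate 1 (log2 0.19), without control replicate 2 (0.32) or without heat replicate 2 (0.18), and under quantile normalization (0.21), while the difference stayed above 0 in each.

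Eif4B (LOC543417), the factor that stimulates the helicase, had signals of 3597 and 3714 on the heat arrays, against 3277 and 3318 on the control arrays. The groups did not overlap and the spread within each was small, with means of 3656 ± 82.8 in heat and 3298 ± 28.7 in control (SD, n = 2 each). The log2 difference of 0.15 ± 0.06 SE (95% interval 0.01 to 0.29) did not pass the threshold (adjusted p = 0.0923 in limma). For eIF-2-beta (LOC543269), the subunit of the tRNA-carrying factor, the signals were 3245 and 3181 on the heat arrays, against 2965 and 3099 on the control arrays. Its arrays also did not overlap, but the nearest heat and control values differed by only 0.04 on the log2 scale. The difference was 0.08 ± 0.06 SE (95% interval -0.06 to 0.23, adjusted p = 0.339 in limma). Of the 3 initiation factors, the cap-binding factor therefore passed and the other 2 did not. A p that misses the threshold does not show that the factors changed unequally.

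CL9 (LOC543077), the ribosomal protein RPL9, was higher in heated leaves. The signals were 3169 and 3304 on the heat arrays, against 2638 and 2874 on the control arrays. Both heat values exceeded both control values, and the wider spread was among the control arrays. The means were 3237 ± 96.0 in heat and 2756 ± 167 in control (SD, n = 2 each), a 1.18-fold rise (log2 0.23 ± 0.07 SE, 95% interval 0.07 to 0.40, adjusted p = 0.0354 in limma). The call was lost without control replicate 1 (log2 0.17), without control replicate 2 (0.29) or without heat replicate 2 (0.20), and under quantile normalization (0.20), as for eIF-4E-1.

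RPS29 (LOC606342) is represented by 2 probe sets, and both carry the suffix that marks probes able to match several transcripts. In hexaploid wheat such a probe set can also report several near-identical gene copies together. The brighter probe set gave 274 and 360 on the heat arrays, against 406 and 390 on the control arrays. Both heat values lay below both control values, but the heat arrays were far apart, and the means were 317 ± 60.8 in heat and 398 ± 11.4 in control (SD, n = 2 each). The log2 difference was -0.34 ± 0.19 SE (95% interval -0.78 to 0.09, adjusted p = 0.196 in limma). Its size rested on 1 array, since it was -0.15 without heat replicate 1 and -0.54 without heat replicate 2, and neither value passed.

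The dimmer RPS29 probe set gave 51.3 and 43.0 on the heat arrays, against 73.8 and 68.1 on the control arrays. Its mean lay below the filter signal of 69.1, so it was not tested. The log2 difference was -0.59, and in a fit with no brightness filter it stood at -0.59 ± 0.55 SE (adjusted p = 0.575 in limma). Both probe sets were thus lower on each heat array than on each control array, without a call. There were 2 further probe sets whose identifiers share the cluster number of the dimmer one and to which the annotation gives no gene. Of these, Ta.24254.1.S1_a_at had 135 and 167 on the heat arrays, against 396 and 223 on the control arrays (log2 -0.99 ± 0.31 SE, adjusted p = 0.0432 in limma). Its call was lost without control replicate 1 (log2 -0.57) or heat replicate 1 (-0.83), under quantile normalization (-0.81) and cyclic loess (-0.78), and, at the same log2 difference, with no filter (adjusted p = 0.0746), with eBayes without the intensity trend (0.121) and with unmoderated t statistics (0.296, all in limma). The other, Ta.24254.2.S1_at, had 124 and 96.6 on the heat arrays, against 164 and 171 on the control arrays (log2 -0.61 ± 0.30 SE, adjusted p = 0.153 in limma). They were chosen after their values were seen and are given no gene name here.

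**Figure D1:**
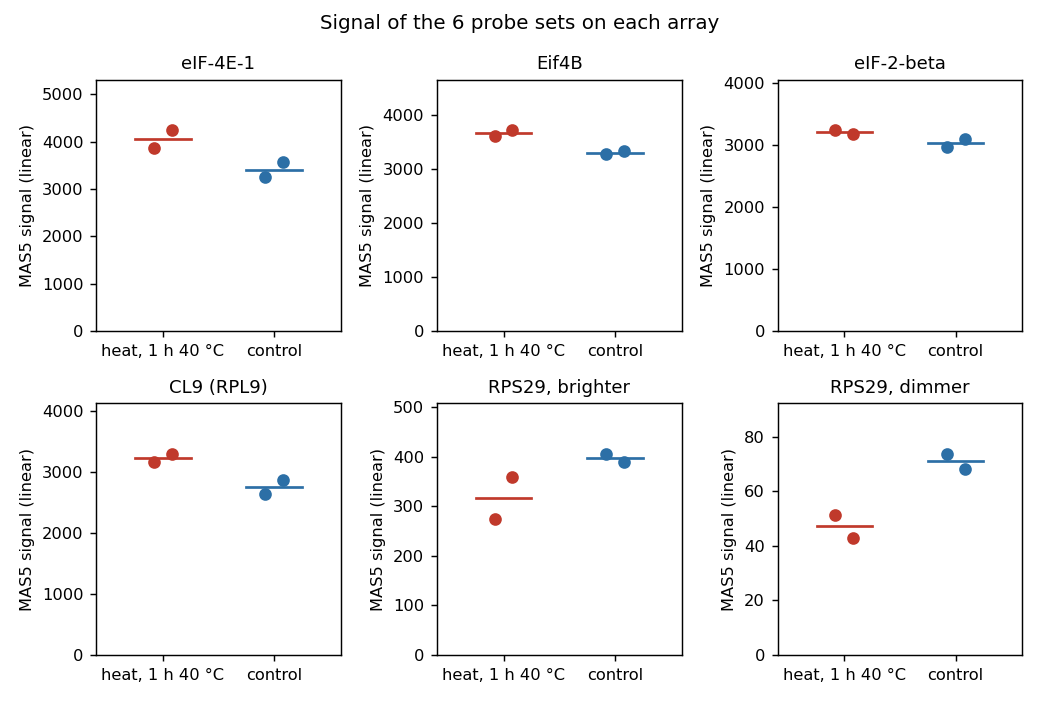
Signal of each of the 6 probe sets (vertical axis, linear MAS5 signal from 0, scaled separately in each panel) on the 2 heat and 2 control arrays; points are arrays and lines are group means. The heat arrays lie above the control arrays for eIF-4E-1, Eif4B, eIF-2-beta and CL9 and below them for both RPS29 probe sets, and the heat values of the brighter RPS29 probe set (274 and 360) are the widest apart relative to their mean among the tested probe sets.

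Over the 5 tested probe sets, 2 were higher and 0 lower in limma at an adjusted p below 0.05, and 3 had an unadjusted p below 0.05. Across the array 37% of the 30590 tested probe sets were called, 14.2% higher and 22.9% lower. With 5 tested probe sets, 2 calls are a share near this background and are not a result about the group. Median centring, which put the median of all tested probe sets at log2 -0.03 in place of -0.15, gave a share of higher among all calls of 50.4% in place of 38.3%. Changes of single genes were also set beside the median of probe sets of like brightness, a comparison planned with earlier results of these data known.

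Each tested member was placed beside the 500 tested probe sets nearest to it in mean log2 signal. Around eIF-4E-1 (signals of 3415 to 4046) the median log2 difference was -0.09 and the middle 50% of values ran from -0.39 to 0.22, so that the gene's 0.25 lay just above this range and above 378 of the 500. Around CL9 the median was -0.08, the middle 50% ran from -0.36 to 0.23, and the gene's 0.23 lay just past its upper edge, above 375 of the 500. With 1000 neighbours the upper quartile was 0.28 for eIF-4E-1 and 0.31 for CL9, so both genes then lay inside the middle 50%. Eif4B lay above 336 and eIF-2-beta above 329 of their 500, both inside the middle 50%. The brighter RPS29 probe set lay 0.20 below a median of -0.15, and 183 of its 500 neighbours were lower still, but without heat replicate 1 it lay above the median of its neighbours.

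At this brightness a call was common. Among the neighbours of the 3 initiation factors and CL9, 64.6% to 66.8% were called, with 26.4% to 29.4% of all these neighbours higher. Around RPS29, where the replicates spread more, 36.6% were called. A rescaling that shifts a whole array, such as median centring or spike scaling, leaves a member's distance from its neighbours as it is. Cyclic loess and quantile normalization shift probe sets of like brightness nearly alike, so they could move this distance only slightly. Under either of them the distance of eIF-4E-1 from the median of its neighbours was log2 0.33. That of CL9 was 0.31 and that of RPS29 was -0.20. These distances are descriptions of single probe sets and carry no test.

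**Figure D2:**
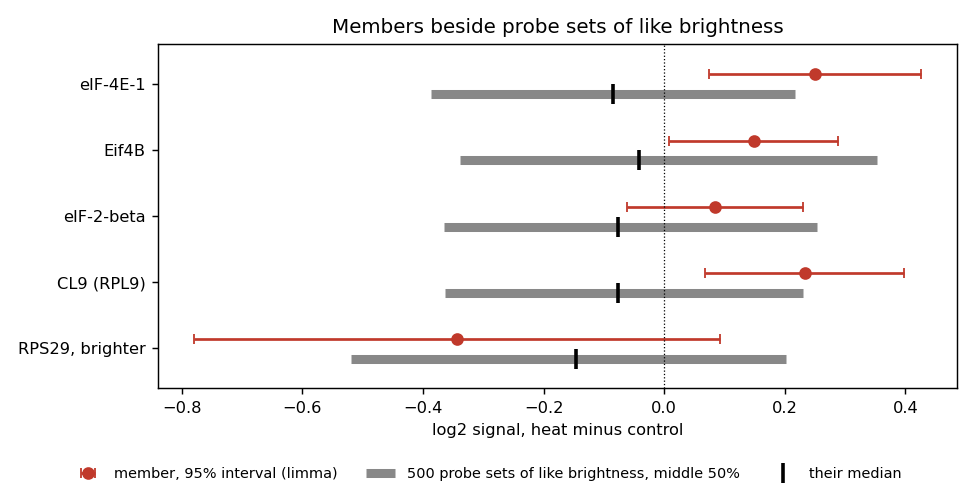
Log2 signal difference, heat minus control (horizontal axis), for the 5 tested probe sets (points, with 95% intervals from limma) and for the 500 probe sets nearest in brightness to each (bars, middle 50%; ticks, median). eIF-4E-1 (0.25) and CL9 (0.23) lie just beyond the upper edge of their bars, Eif4B and eIF-2-beta lie within theirs, and RPS29 (-0.34) lies within its bar below the median.

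The position of a probe set among all 61179 on its own array does not depend on a common scaling. eIF-4E-1 stood at percentiles 95.1 and 95.4 on the heat arrays, against 94.4 and 94.8 on the control arrays. CL9 stood at 94.1 and 94.3 in heat, against 93.2 and 93.7 in control, and Eif4B at 94.7 and 94.8 in heat, against 94.4 and 94.5 in control. For these 3 genes both heat arrays ranked above both control arrays. For such a separation, in ranks or in signals, an exact two-sided permutation test cannot give a p below 0.333. The share of all probe sets that separate in this way was not counted. eIF-2-beta (94.2 and 94.1 in heat, 93.9 and 94.1 in control) and the brighter RPS29 probe set (71.69 and 75.33 in heat, 75.18 and 75.03 in control) overlapped between the groups. The dimmer RPS29 probe set stood lower in heat, at 40.6 and 38.3, against 47.6 and 46.9 in control.

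Ratios within an array also leave out any scaling common to its probe sets. The log2 ratio of eIF-4E-1 to eIF-2-beta was 0.25 and 0.42 on the heat arrays, against 0.14 and 0.20 on the control arrays. Its ratio to Eif4B was 0.11 and 0.19 in heat, against -0.01 and 0.10 in control. The heat values lay above the control values in both, by margins under the spread between the 2 heat arrays. The eIF-4E-1 to CL9 ratio overlapped between the groups (0.29 and 0.36 in heat, 0.30 and 0.31 in control), so no unequal change of these 2 genes was detectable. Between the ribosomal proteins, the log2 ratio of CL9 to the brighter RPS29 probe set was 3.53 and 3.20 on the heat arrays, against 2.70 and 2.88 on the control arrays, with no overlap and a difference of 0.58 between the group means. Here too the margin between the groups was under the spread between the 2 heat arrays. An exact two-sided permutation test of 2 arrays against 2 cannot give a p below 0.333, and no other test of these ratios was run.

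**Figure D3:**
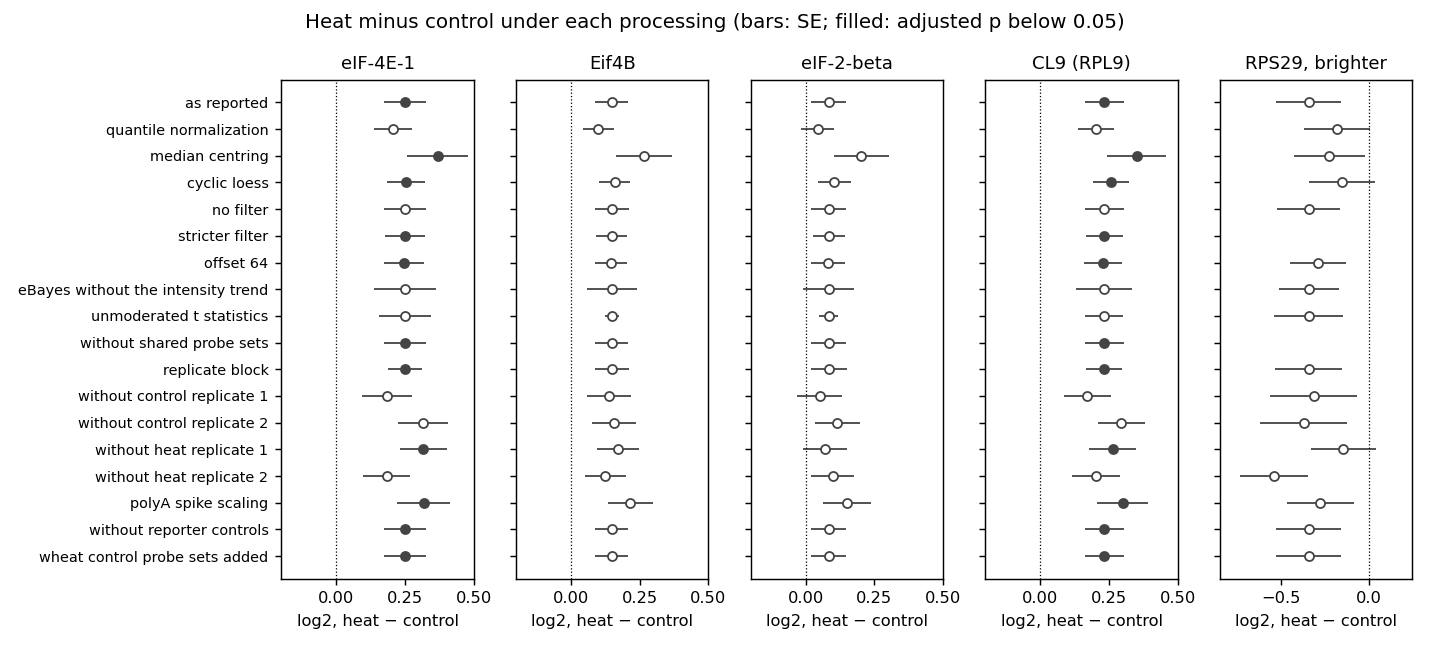
Log2 signal difference, heat minus control (horizontal axes), of the 5 tested probe sets as reported and under each other processing (rows). Bars are SE, and filled points have an adjusted p below 0.05. Only the rows with rescaled arrays could have crossed 0. eIF-4E-1 and CL9 stay above 0 in every row but keep the call in only 10 of 17 alternatives, Eif4B and eIF-2-beta stay above 0 with no call in any row, and RPS29 stays below 0 with no call in its 15 alternatives.

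A list of further initiation, elongation and release factors, poly(A)-binding proteins and ribosomal proteins was searched among symbols and synonyms, and 0 genes beyond the members matched it. Only 102 of the 771 annotated genes had a name beyond a LOC number. Other genes of this kind could therefore be on the array without a match. The elongation factor TEF1, the 1-alpha factor that delivers aminoacyl-tRNA to the ribosome, fell outside its patterns and was added after its values were seen. Its probe sets gave 28675 and 27972 (heat) against 22270 and 24357 (control), and 28692 and 28081 (heat) against 23823 and 23821 (control). Both were higher on the deposited scaling, at log2 0.28 ± 0.06 SE (adjusted p = 0.00722) and 0.25 ± 0.05 SE (adjusted p = 0.00461, limma). Under quantile normalization both turned to the other side of 0 with no call (log2 -0.09 and -0.11), and under cyclic loess neither passed (0.10 and 0.07). With median centring (0.40 and 0.37) and polyA spike scaling (0.35 and 0.32) both were called higher. With single arrays left out, the log2 differences were 0.22 to 0.35 and 0.24 to 0.27. On the deposited scaling, neither was called with eBayes without the intensity trend (adjusted p = 0.13 and 0.126 in limma). With unmoderated t statistics the first was not called (adjusted p = 0.155) and the second was (0.0478). The direction of TEF1 thus depended on the scaling, and its call also on the moderation. Its probe sets were not set beside probe sets of like brightness.

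Among the 66 other named genes with a tested probe set, the likeness of patterns was measured as the root mean square difference of mean-centred log2 signals over the 4 arrays. PRO1, a profilin (0.0257), and TSA (0.0424) were nearest to eIF-4E-1, and the same 2 genes were nearest to CL9 (TSA at 0.026 and PRO1 at 0.0276). AGA.1 (0.0175) and the alpha-tubulin TUBA (0.0311) were nearest to Eif4B. UBC1, a ubiquitin-conjugating enzyme (0.024), and the peroxiredoxin Prx1 (0.028) were nearest to eIF-2-beta. No gene came as near to RPS29, where the histone H2A-3 (0.106) and the beta-tubulin Tubb4 (0.111) stood first. With 4 arrays such likeness mostly orders genes by the size of their difference between the groups.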

How the data were processed

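The deposited values are MAS5 signal intensities on a linear scale, 1 per probe set and array, made by the authors with Affymetrix Expression Console 1.1 and MAS5, per the submitters' processing notes, which were seen without settings. The 2% trimmed mean of the deposited intensities was 500.1 on every array, so the arrays had been scaled alike. Log2 intensities were analysed with no further normalization. Of 61290 probe sets, 111 AFFX controls were left out. The 30590 with a mean log2 signal of at least 6.11 (a signal of 69.1, the median over the rest) entered a linear model of heat minus control in limma 3.58.1 under R 4.3.3. Its eBayes step used an intensity trend and had 2 residual and 5.45 prior degrees of freedom. Two-sided p-values were adjusted by Benjamini-Hochberg over all 30590, with a threshold of 0.05. The code of the fit was checked on simulated arrays with known changes. Their noise was drawn from the fitted model itself, so this check cannot show that the deposited arrays follow that model. Fold changes are ratios of geometric means. Genes came from the supplied platform annotation, which gives a gene to 1273 probe sets, and from RefSeq's gene list for wheat (assembly IWGSC CS RefSeq v2.1), which held 770 of the 771 genes. Every member probe set is named whatever its value. For likeness of pattern, the 2 nearest named genes per member are given. The members, lists and tests were chosen with earlier results of these data known. No detection calls were used, and the number of arrays limits the precision. Alternatives covered scaling, the brightness filter, an offset, moderation, shared probe sets, the replicate block, each array left out and the control probe sets.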

Additional observations from a re-analysis of the deposited data

Results flagged for a closer look

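The 18S rRNA control probe set of the array, which lies outside the main comparison, was higher on the heat arrays. Whether this signal follows the amount of 18S rRNA in the leaf was not tested. The signals of the probe set were 45281 and 44756 on the heat arrays, against 32577 and 34834 on the control arrays. When the array's control probe sets of wheat genes were added to the limma fit, its log2 difference was 0.42 ± 0.05 SE (adjusted p = 6.2e-04). It was 0.16 under quantile normalization, 0.19 under cyclic loess, 0.54 with median centring and 0.49 with polyA spike scaling, past the threshold in each, and 0.37 to 0.47 when single arrays were left out. Fits without the intensity trend or with unmoderated t statistics are not given for this probe set. Nor was it set beside probe sets of like brightness. The 3 control probe sets named for the elongation factor ef1a had signals of 27.3 to 207 over the 4 arrays and overlapped between the groups, with adjusted p-values of 0.348 to 0.906 in the same fit. AFFX-Ta-ef1a-3_at and AFFX-Ta-ef1a-5_at had mean log2 signals of 5.84 and 5.73, below the filter of 6.11. That filter was not applied to control probe sets.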

How the results depend on the processing

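The heat versus control comparison called 11332 probe sets, 2593 with unmoderated t statistics and 6998 without shared probe sets, where 21303 were tested. Without 1 array it called 7628 to 10665. Both member calls, eIF-4E-1 and CL9, were lost, leaving 0, under quantile normalization (adjusted p = 0.0556 and 0.0507), with no filter (0.069 and 0.0714), with eBayes without the intensity trend (0.189 and 0.182) and with unmoderated t statistics (0.244 and 0.194); over all alternatives their adjusted p ranged from 0.0127 to 0.244 and from 0.0195 to 0.202. Leaving out single arrays gave 0 to 2 member calls; the group left with 1 array is then assumed to vary like the other. The causes of these losses were not tested. No direction of a member turned in any alternative. Only quantile normalization, median centring, cyclic loess and polyA spike scaling could have turned one. The others kept the log2 difference or could not reverse groups that did not overlap. With 250, 500 or 1000 neighbours, eIF-4E-1, Eif4B, eIF-2-beta and CL9 (4 tested members) lay above the median of their neighbours. They also did so with the offset, without shared probe sets and without any single array. The same held under quantile normalization and cyclic loess, which shift probe sets of like brightness nearly alike. Without heat replicate 1, RPS29 lay above that median too (5). The remaining alternatives leave these distances unchanged by construction. Replicate numbers did not pair the arrays by the check used (correlation of deviations 0.0111 over probe sets); with the replicate number as a block 11603 probe sets and the same 2 members were called. The stricter filter and the fit without shared probe sets give RPS29 no value. The translation list held no gene beyond the members, so it was not run. Spike scaling and both fits that change the control probe sets were chosen after seeing the data.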

Other observations

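The identifiers of 6 further probe sets share the cluster number of the TEF1 probe sets, and the annotation gives them no gene. On the deposited scaling 6 of the 6 were higher in heat in limma, with log2 differences of 0.21 to 0.75. Over all tested probe sets 14.2% were called higher. These 6 were not set beside probe sets of like brightness. Under quantile normalization 2 of the 6 passed (range -0.11 to 0.40), and under cyclic loess 5 (range 0.08 to 0.58). With median centring (0.33 to 0.87) and polyA spike scaling (0.28 to 0.82) 6 of the 6 passed. With eBayes without the intensity trend only Ta.659.4.S1_a_at and Ta.659.7.A1_x_at passed (adjusted p = 0.0246 and 0.0196 in limma). With unmoderated t statistics only Ta.659.7.A1_x_at did (adjusted p = 0.0481). Probe sets of the same cluster may report the same transcripts and need not be separate observations. Those that passed under quantile normalization were Ta.659.4.S1_a_at, with 35436 and 36621 on the heat arrays against 21399 and 23234 on the control arrays, and Ta.659.7.A1_x_at, with 27215 and 29019 on the heat arrays against 16751 and 16655 on the control arrays. They were singled out after their values were seen.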
